A study of Mus musculus with 9 samples.

Results

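Retinoids are vitamin A and the compounds made from it, and 9 genes that carry, take up, make, break down or sense them were followed in mouse skin after loss of *Supt6* in the epidermis. They were *Crabp1*, *Crabp2*, *Fabp5*, *Stra6*, *Dhrs9*, *Aldh1a3*, *Cyp26b1*, *Rarg* and *Rxra*, chosen by name and found in the count table by their NCBI gene numbers. All 9 of them had a row among the 17943 genes of the table, and all 9 passed the filter on low counts that kept 16426 genes for testing. In the knockout mice *Fabp5*, *Aldh1a3*, *Crabp2* and *Dhrs9* were higher than in any control mouse, and *Cyp26b1*, *Rxra*, *Rarg* and *Stra6* were lower than in any control mouse. *Crabp1* was also called higher, but its groups overlapped and its direction changed with the scaling.

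Bulk RNA-Seq was performed on skin from 5 control mice and 4 *Supt6*-KO mice. *Supt6* encodes SPT6, a histone chaperone that travels with RNA polymerase II. The *Supt6*-KO mice carried K14-CreERT and 2 floxed *Supt6* alleles and received tamoxifen, whereas the controls, labelled WT, are described by the study as *Supt6* fl/fl mice given corn oil, so that both groups carried the floxed alleles. Cre and the drug therefore differed together and cannot be told apart. The *K14* promoter drives Cre in basal keratinocytes, and whole skin also holds cells in which it is not active. The study places induction in the first telogen, the resting phase of the hair cycle, and skin was harvested on day 10 after the last injection, and the labels name ear where the methods name dorsal skin. Strain, sex and age in days were not given in the sources used here, nor whether the mice were littermates. The estimated counts summed to 29627341 to 30491197 per control mouse and to 30597189 to 30967107 per *Supt6*-KO mouse. The keratinocyte gene *Krt14* had levels of 2970 to 9610 CPM (the count per 1000000 counts of the scaled library) in the 9 libraries, so the epidermis was represented in each. Transcripts of the cartilage genes *Acan* and *Col2a1* were also present in every library, at 83.4 to 294 CPM and 40.4 to 129 CPM in the controls and at 10.7 to 15.5 CPM and 4.22 to 5.71 CPM in the *Supt6*-KO mice.

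Retinol circulates bound to a carrier protein and enters some cells through the receptor STRA6. Dehydrogenases oxidise it first to retinal and then, irreversibly, to retinoic acid, and CYP26 enzymes remove retinoic acid by hydroxylation. CRABP2 carries retinoic acid to the nuclear receptor RAR and FABP5 carries it to PPARδ, and both kinds of receptor bind DNA as partners of RXR. In the epidermis retinoic acid is known to affect how keratinocytes mature, and RARγ with RXRα is the main receptor pair there.

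The targeted gene was examined first. *Supt6* was at 74.5, 56.6, 63.6, 91.1 and 96.7 CPM in the controls and at 28.6, 24.1, 21.9 and 28.4 CPM in the *Supt6*-KO mice, after scaling of the libraries by TMM, the trimmed mean of M-values. Every knockout mouse lay below every control mouse, with a log2 fold change of -1.57 (SE 0.18, adjusted p = 1.3e-05 in edgeR's quasi-likelihood test). The size of the fall depended on the scaling, at -2.26 with library totals, -0.78 with an offset for transcript length and -0.69 with an offset for effective length, and *Supt6* was called lower with each. In whole skin, here and throughout, fewer cells of a type and less RNA per cell cannot be told apart.

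By the same test, 5 of the 9 retinoid genes were higher and 4 were lower in *Supt6*-KO skin, with calls made where the adjusted p was under 0.05. Of the 16426 genes tested, 71.0% were called, 34.1% as higher and 36.8% as lower, so most genes in this comparison were called and a call by itself does not set a retinoid gene apart. With libraries scaled by their totals the same split over all genes was 16.9% higher and 54.6% lower, and the retinoid genes then counted 4 higher and 4 lower. An offset that removes the trend of counts with transcript length in each mouse gave 35.9% higher and 32.0% lower, the same with effective lengths gave 38.2% and 34.6%, and the retinoid genes again counted 4 and 4. Every knockout mouse lay above every control mouse for 4 of the 9 retinoid genes and below every control mouse for another 4, where 28.9% and 31.8% of all genes tested did so. The size of the change set some members further apart. Of all genes tested, 1.03% had a log2 fold change at or above that of *Aldh1a3* and 1.11% at or above that of *Fabp5*, against 4.72% for *Crabp2* and 6.6% for *Dhrs9*. On the lower side, 7.73% of genes lay at or below *Cyp26b1*, 10.6% at or below *Stra6*, 12.9% at or below *Rxra* and 15.4% at or below *Rarg*.

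**Figure D1:**
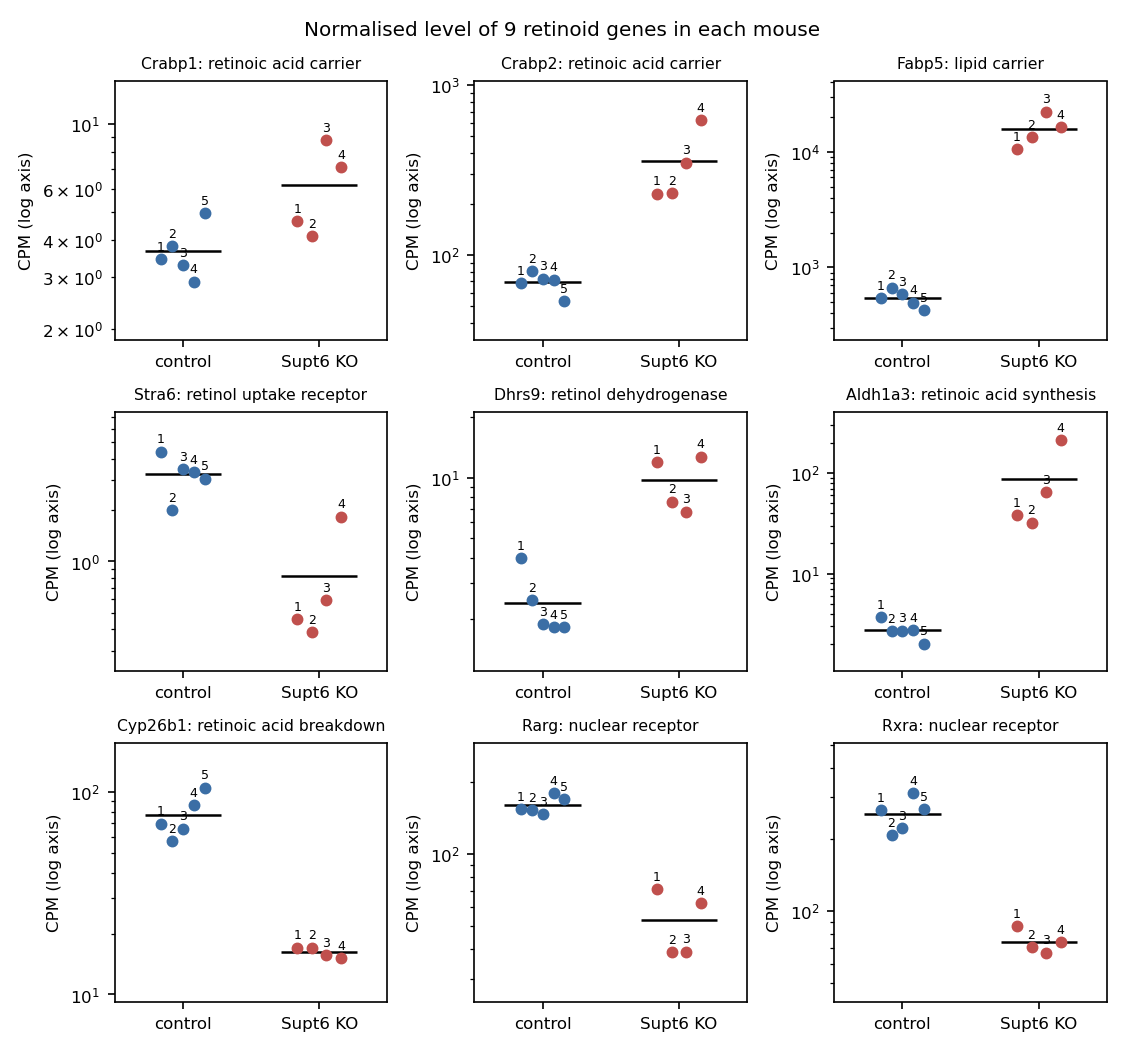
Normalised level in CPM (log axis) of the 9 retinoid genes in each of 5 control mice (blue) and 4 *Supt6*-KO mice (red), with mouse numbers beside the points and a line at the group mean. The groups are separate for every gene except *Crabp1*, and *Aldh1a3* runs from 2.01 to 3.66 CPM in the controls and from 32.0 to 211 CPM in the knockout mice.

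The intracellular carriers were considered first. *Fabp5*, which lies at chr3:10012548-10016607 in GRCm38 on the forward strand, encodes the epidermal fatty acid binding protein. It was at 544, 668, 585, 494 and 426 CPM in the controls and at 10600, 13300, 22200 and 16400 CPM in the *Supt6*-KO mice. The groups were far apart, and knockout mouse 3 was the highest. *Fabp5* was 28.7-fold higher, with a log2 fold change of 4.85 (SE 0.28, adjusted p = 2.2e-07, edgeR). In the controls the gene took between 0.056% and 0.0801% of all counts and ranked between 138 and 193 among genes by counts. In the *Supt6*-KO mice it took 0.83%, 0.894%, 1.56% and 1.49% of all counts and ranked 7, 7, 3 and 2. Of the summed counts of the 9 retinoid genes, *Fabp5* held 41.2% to 56.7% in the controls and 94.2% to 97.6% in the knockout mice. Its estimated counts as deposited were exactly whole (remainder of 0 as written in the table) in all 9 mice, as were those of the other 8 retinoid genes, so no fraction of a read is visible in them. No exon of another gene in the GENCODE annotation overlapped an exon of any of the 9.

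*Crabp2*, at chr3:87948666-87953376 on the forward strand, encodes the carrier that delivers retinoic acid to RAR. Its levels were 68.4, 80.7, 72.7, 71.9 and 53.4 CPM in the controls and 230, 232, 351 and 621 CPM in the *Supt6*-KO mice. All knockout mice were above all controls, and they spread widely among themselves, with a coefficient of variation of 51.3% against 14.4% in the controls. The change was 5.16-fold (log2 fold change 2.37, SE 0.28, adjusted p = 1.9e-05, edgeR). *Crabp1*, at chr9:54764748-54773110 on the forward strand, encodes a related carrier of retinoic acid. It was at 3.45, 3.83, 3.29, 2.89 and 4.94 CPM in the controls and at 4.64, 4.13, 8.78 and 7.11 CPM in the *Supt6*-KO mice. Knockout mice 1 and 2 lay inside the control range and mice 3 and 4 above it. edgeR called it higher, with a log2 fold change of 0.74 (SE 0.25, adjusted p = 0.019), and the exact permutation test over mice gave a two-sided p of 0.0476. Its raw counts were alike in the groups, at 107 to 194 in the controls and 86 to 198 in the knockout mice. With library totals in place of TMM its log2 fold change was 0.05 (adjusted p = 0.87, edgeR), and with the transcript length offset it was -0.43 (adjusted p = 0.22, edgeR). Without knockout mouse 3 the value was 0.52 and was no longer called (adjusted p = 0.082, edgeR).

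Uptake of retinol was represented by *Stra6*, at chr9:58063788-58153996 on the forward strand, which encodes the receptor for the retinol carrier RBP4. It was a rare transcript, at 4.41, 2.00, 3.49, 3.33 and 3.06 CPM in the controls and 0.46, 0.384, 0.595 and 1.83 CPM in the *Supt6*-KO mice. The groups did not overlap, but knockout mouse 4 stood close to control mouse 2 and well above the other 3 knockout mice. The knockout values rest on 11, 8, 13 and 51 counts. The fitted log2 fold change was -1.96 (SE 0.44, adjusted p = 0.0018, edgeR), a 3.88-fold lower level, and it was -2.76 without knockout mouse 4.

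Both of the 9 genes that act in retinoic acid synthesis were higher. *Dhrs9*, at chr2:69380445-69404533 on the forward strand, encodes a dehydrogenase that oxidises retinol to retinal. It was at 3.98, 2.46, 1.88, 1.81 and 1.81 CPM in the controls and at 11.9, 7.58, 6.77 and 12.7 CPM in the *Supt6*-KO mice. The lowest knockout mouse was above the highest control, and the level was 4.07-fold higher (log2 fold change 2.02, SE 0.29, adjusted p = 7.5e-05, edgeR). *Aldh1a3*, at chr7:66390890-66427517 on the reverse strand, encodes a retinaldehyde dehydrogenase that makes retinoic acid. Its control levels of 3.66, 2.66, 2.69, 2.73 and 2.01 CPM faced 38.1, 32.0, 64.4 and 211 CPM in the knockout mice. Mouse 4 held by far the most, and even the lowest knockout mouse, at 32.0 CPM, was well above the highest control, at 3.66 CPM. The log2 fold change was 4.97 (SE 0.54, adjusted p = 1e-05, edgeR), or 31.4-fold, and 4.02 without mouse 4.

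*Aldh1a1* and *Aldh1a2*, which encode related retinaldehyde dehydrogenases, were lower, and *Aldh8a1* was not called (log2 fold change 0.82, adjusted p = 0.23, edgeR). *Aldh1a1* was at 40.4 ± 5.29 CPM (SD, n = 5) in the controls and 10.3 ± 1.56 CPM (SD, n = 4) in the *Supt6*-KO mice, with a log2 fold change of -1.97 (adjusted p = 1e-06, edgeR). *Aldh1a2*, rare in both groups, fell by 1.24 on the log2 scale (adjusted p = 0.039, edgeR). Per effective length, the length that the deposited counts and TPM together imply, *Aldh1a3* made up 5.55%, 4.28%, 4.58%, 4.38% and 2.53% of the summed *Aldh1a1*, *Aldh1a2* and *Aldh1a3* level in the controls. In the *Supt6*-KO mice it made up 75.2%, 63.6%, 78.4% and 92.9%. The most abundant of the 3 transcripts was thus *Aldh1a1* in every control and *Aldh1a3* in every knockout mouse. Such shares are taken within a library and do not depend on the scaling between mice.

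**Figure D2:**
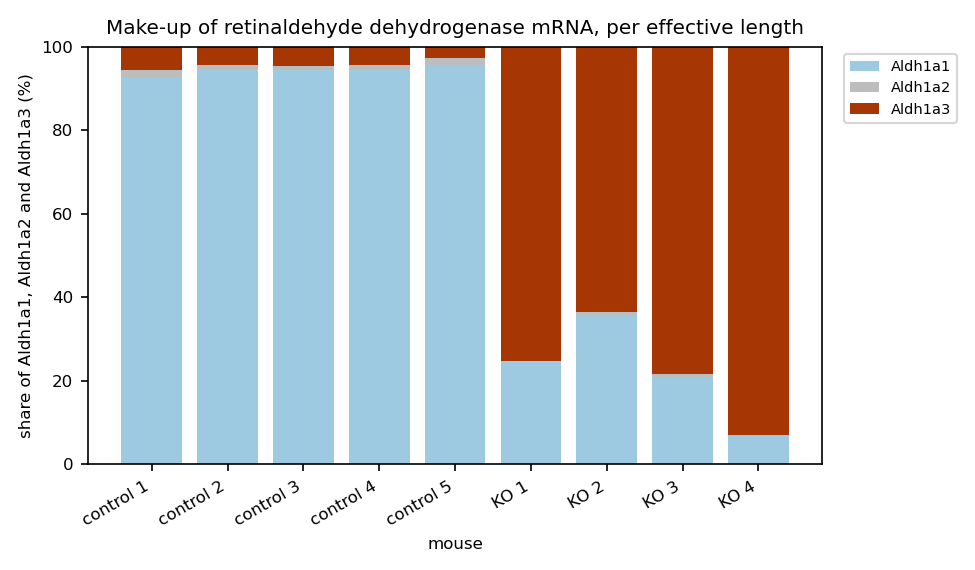
Stacked bars of the share (%) of *Aldh1a1*, *Aldh1a2* and *Aldh1a3* in their summed level per effective length, for each of 9 mice. *Aldh1a1* fills 92.5% to 95.6% of the bar in the controls, and *Aldh1a3* 63.6% to 92.9% in the *Supt6*-KO mice.

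Breakdown of retinoic acid was represented by *Cyp26b1*, at chr6:84571414-84593908 on the reverse strand, which encodes a cytochrome P450 that hydroxylates retinoic acid. It was at 69.8, 57.0, 66.0, 86.2 and 105 CPM in the controls and at 17, 17, 15.6 and 15.1 CPM in the *Supt6*-KO mice. The knockout mice were all below the controls and nearly equal, with a coefficient of variation of 5.97% against 24.8% in the controls. *Cyp26b1* was 4.74-fold lower (log2 fold change -2.25, SE 0.18, adjusted p = 1.5e-06, edgeR). Its relative *Cyp26a1* was at 2.14 ± 0.567 CPM (SD, n = 5) and 0.74 ± 0.33 CPM (SD, n = 4), and fell by 1.52 on the log2 scale (adjusted p = 0.0014, edgeR). *Cyp26c1*, the remaining member of the family, had too few counts to be tested.

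Both receptor genes among the 9 were lower. *Rarg*, at chr15:102234938-102257517 on the reverse strand, encodes RARγ. It was at 154, 152, 147, 179 and 169 CPM in the controls and at 70.9, 38.6, 38.9 and 62.1 CPM in the *Supt6*-KO mice. The groups were clearly separate, with a 3.05-fold lower level in the knockout mice (log2 fold change -1.61, SE 0.19, adjusted p = 2.2e-05, edgeR). *Rxra*, at chr2:27676440-27762957 on the forward strand, encodes RXRα, the partner with which RAR binds DNA. Its levels of 266, 209, 223, 312 and 268 CPM in the controls compared with 86.5, 70.5, 67.0 and 73.9 CPM in the knockout mice. Again no knockout mouse reached the control range, and *Rxra* was 3.43-fold lower (log2 fold change -1.78, SE 0.15, adjusted p = 2.1e-06, edgeR).

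The other receptors of the 2 families were examined as well. *Rara*, which encodes RARα, was at 18.9 ± 1.99 CPM (SD, n = 5) in the controls and 4.24 ± 0.582 CPM (SD, n = 4) in the *Supt6*-KO mice, with a log2 fold change of -2.15 (adjusted p = 7.8e-07, edgeR). *Rxrg* fell by 1.28 (adjusted p = 0.00088) and *Rarb* by 0.99 (adjusted p = 0.0066) on the log2 scale in the edgeR fit. *Rxrb* was at 40.1 ± 5.47 CPM (SD, n = 5) and 36.6 ± 5.58 CPM (SD, n = 4) and was not called (log2 fold change -0.13, adjusted p = 0.41, edgeR). Under library totals *Rxrb* was called lower too. Within the RAR family *Rarg* held 88.7% to 89.9% of the level per effective length in the controls and 87.5% to 93.5% in the knockout mice, so the make-up of the family overlapped between the groups. *Rxra* held 67.7% to 79.1% of the summed *Rxra* and *Rxrb* level in the controls and 44.0% to 53.8% in the knockout mice, which did not overlap.

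**Figure D3:**
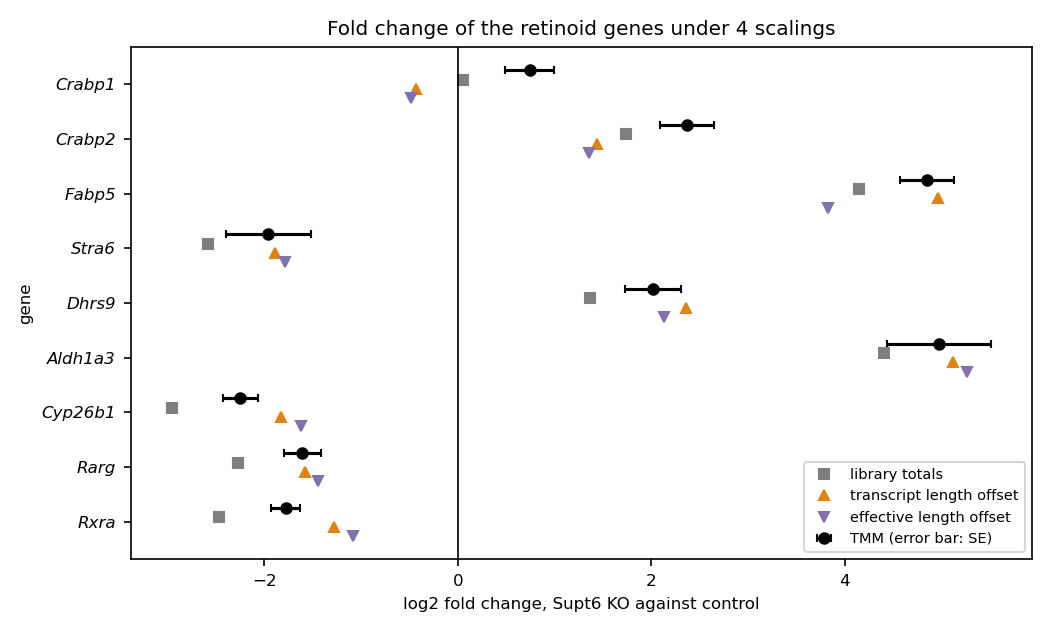
Log2 fold change of each retinoid gene, *Supt6*-KO against control, with TMM scaling (circles, bars show SE), library totals (squares), a transcript length offset (upward triangles) and an effective length offset (downward triangles). *Crabp1* is the only gene whose points lie on both sides of 0, from -0.48 to 0.74.

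The 4 scalings did not move the other 8 genes across 0. *Fabp5* ranged from 3.82 to 4.96 on the log2 scale over these scalings, *Aldh1a3* from 4.4 to 5.26 and *Crabp2* from 1.35 to 2.37. *Rxra* ranged from -2.47 to -1.08 and *Cyp26b1* from -2.96 to -1.62. *Dhrs9* ranged from 1.37 to 2.36, *Stra6* from -2.58 to -1.79 and *Rarg* from -2.27 to -1.45. The median log2 fold change over all genes was -0.072 with TMM, -0.759 with library totals, 0.05 with the transcript length offset and 0.056 with the effective length offset. Relative to these medians, the changes of *Fabp5*, *Aldh1a3*, *Crabp2* and *Dhrs9* were above and those of the 4 lower genes below the typical gene in each case.

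Ratios between retinoid genes were then compared within each mouse, which removes the scaling between libraries. The 5 pairs each set carrier against carrier, enzyme against enzyme or receptor against receptor. A comparison of 5 mice against 4 allows no two-sided exact permutation p below 0.0159. The ratio of *Aldh1a3* to *Cyp26b1*, a gene of retinoic acid synthesis and a gene of its breakdown, lay between 0.0192 and 0.0527 in the controls and was 2.24, 1.88, 4.11 and 13.9 in the *Supt6*-KO mice. The ratio was thus below 1 in every control and above 1 in every knockout mouse, a 109-fold difference (6.77 on the log2 scale, p = 0.0159, exact permutation test, adjusted over the 5 ratios p = 0.0198). Without knockout mouse 4 the difference was 6.16 on the log2 scale. *Aldh1a1* was the most abundant of the *Aldh1a1*, *Aldh1a2* and *Aldh1a3* transcripts in the controls. Summing the counts of these genes was an alternative chosen after seeing the data. The ratio of the sum to *Cyp26b1* was 0.482 to 0.725 in the controls and 2.58 to 14.6 in the knockout mice. This was an 8.14-fold difference (3.02 on the log2 scale, p = 0.0159, exact permutation test, adjusted p = 0.0198). *Dhrs9* encodes an enzyme that oxidises retinol to retinal and *Dhrs3* one that reduces retinal back to retinol. Their ratio was 8.44-fold higher in the knockout mice (3.08 on the log2 scale, p = 0.0159, exact permutation test, adjusted p = 0.0198). It stayed below 1 in every mouse, at 0.0339 to 0.0785 in the controls and 0.27 to 0.768 in the knockout mice. Other enzymes acting on retinol and retinal, given below, are not part of this ratio. The ratio of *Crabp2* to *Crabp1* was higher by 1.56 on the log2 scale, with no overlap (p = 0.0159, exact permutation test, adjusted p = 0.0198).

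Among the carriers the balance moved toward *Fabp5*. The ratio of *Crabp2* to *Fabp5* counts, 0.121 to 0.146 in the controls, was 0.0216, 0.0175, 0.0159 and 0.0378 in the knockout mice. That is 5.87-fold lower (-2.55 on the log2 scale, p = 0.0159, exact permutation test, adjusted p = 0.0198), although both genes were higher in the *Supt6*-KO mice. *Rarg* and *Rxra* kept a similar ratio, 0.574 to 0.727 in the controls and 0.547 to 0.841 in the knockout mice. These ranges overlapped and the difference of 0.11 on the log2 scale was not larger than the spread between mice (p = 0.508, exact permutation test).

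**Figure D4:**
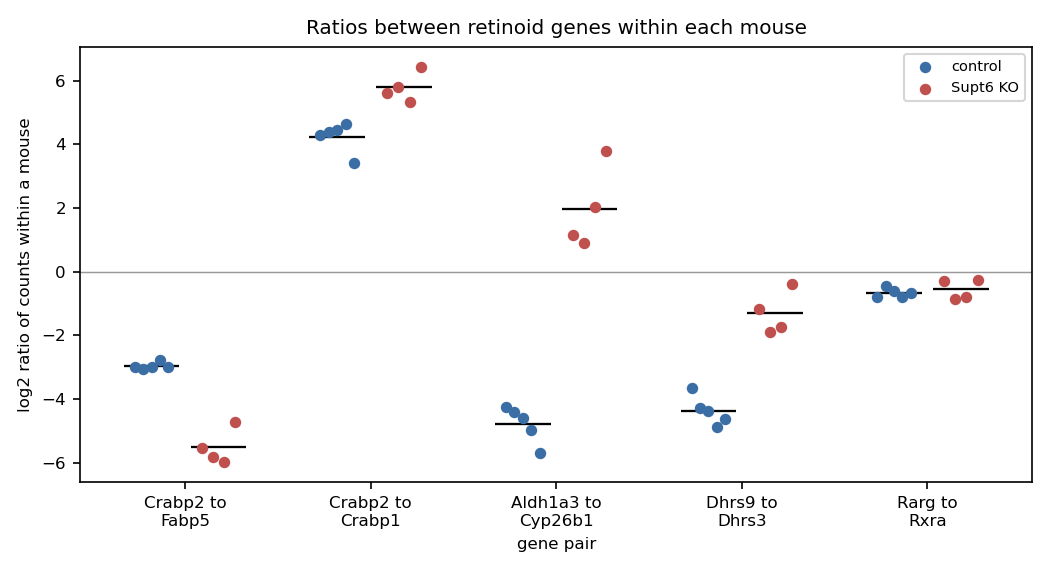
Log2 ratio of counts between 2 retinoid genes within each mouse, for 5 pairs, in 5 controls (blue) and 4 *Supt6*-KO mice (red), with a line at each group mean. *Aldh1a3* to *Cyp26b1* moves from below 0 to above 0, and *Rarg* to *Rxra* is the only pair whose groups overlap.

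Levels of different genes were set in order per kilobase of the longest annotated transcript. In the controls *Fabp5* came first with 168 ± 28.3 CPM per kilobase (SD, n = 5), followed by *Crabp2* with 74.6, *Rarg* with 54.3, *Rxra* with 52.1, *Cyp26b1* with 17.1, *Crabp1* with 4.59, *Stra6* with 1.06, *Aldh1a3* with 0.799 and *Dhrs9* with 0.558. The ranges of *Crabp2* and *Rarg*, *Rarg* and *Rxra*, *Stra6* and *Aldh1a3*, and *Aldh1a3* and *Dhrs9* overlapped, so the order of these neighbours is not resolved. In the *Supt6*-KO mice *Fabp5* was at 4820 ± 1530 CPM per kilobase (SD, n = 4) and *Crabp2* at 385. *Aldh1a3* with 25.1, *Rarg* with 17.8 and *Rxra* with 15.2 came next, and their ranges overlapped from each to the next. The place of *Aldh1a3* before the receptor genes rested on knockout mouse 4, since without it *Aldh1a3* was at 13.0, after *Rarg* with 16.7 and *Rxra* with 15.2. *Crabp1* with 7.69, *Cyp26b1* with 3.6, *Dhrs9* with 2.27 and *Stra6* with 0.266 (0.156 without mouse 4) followed without overlap. The longest *Fabp5* transcript has 3238 bases against a mean of 987 for its protein-coding transcripts, so its level per length is lower on this scale than on the latter, at 551 CPM per kilobase in the controls and 15800 in the knockout mice. With that mean coding length *Crabp2* came after *Rarg* and *Rxra* in the controls, and per effective length *Cyp26b1* came after *Dhrs9* in the knockout mice with overlapping ranges.

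Promoter sequence was examined for the 6 of the 9 genes that RefSeq's promoter table (GRCm38.p6, 250 bases before to 50 bases after a start site) holds, with 11 promoters in all. *Fabp5*, *Aldh1a3* and *Crabp2*, the members with the largest rises, had no promoter there and were not searched. RAR and RXR are known to bind direct repeats of the hexamer AGGTCA or close variants. The letters searched on both strands were AGGTCA itself, GNTCANNGNTCA (spacing of 1 base, DR1), GNTCANNNGNTCA (spacing of 2 bases, DR2) and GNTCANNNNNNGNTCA (spacing of 5 bases, DR5), where N is any base. These letters were present in 16.3%, 1.26%, 1.12% and 0.861% of 32851 promoters of the same length. None of the 11 promoters of the retinoid genes held the letters of DR1, DR2 or DR5, whereas the *Dhrs9* promoter, 1 of 2 *Rarg* promoters and 1 of 2 *Rxra* promoters held AGGTCA. The promoters of *Rarb* and *Cyp26a1*, textbook targets of retinoic acid that were lower in the *Supt6*-KO mice, each held a DR5 match. They are printed with the promoters of *Cyp26b1*, the lowered gene with the least spread between knockout mice, and *Dhrs9*, a raised enzyme. Capitals mark DR5 matches in *Rarb* (chr14:16575427-16575726, reverse strand) and *Cyp26a1* (chr19:37697558-37697857, forward strand, matched on the opposite strand) and TGACCT, which is AGGTCA on the opposite strand, in *Dhrs9* (chr2:69380212-69380511, forward strand). *Cyp26b1* (chr6:84593761-84594060, reverse strand) held none of these letters in this window. All are written 5′ to 3′ on the strand of the gene.
Rarb: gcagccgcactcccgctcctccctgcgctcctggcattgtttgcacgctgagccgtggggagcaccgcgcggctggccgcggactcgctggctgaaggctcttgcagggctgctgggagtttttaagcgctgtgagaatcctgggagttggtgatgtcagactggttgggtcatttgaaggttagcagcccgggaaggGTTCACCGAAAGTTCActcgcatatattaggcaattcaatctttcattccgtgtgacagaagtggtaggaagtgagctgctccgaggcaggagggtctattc
Cyp26a1: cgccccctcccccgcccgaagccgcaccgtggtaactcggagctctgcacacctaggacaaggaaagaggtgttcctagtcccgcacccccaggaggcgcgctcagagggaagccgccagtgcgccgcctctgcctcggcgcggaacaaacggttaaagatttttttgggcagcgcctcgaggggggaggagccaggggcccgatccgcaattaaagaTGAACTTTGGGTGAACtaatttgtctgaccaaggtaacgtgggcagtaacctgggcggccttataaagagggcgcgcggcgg
Cyp26b1: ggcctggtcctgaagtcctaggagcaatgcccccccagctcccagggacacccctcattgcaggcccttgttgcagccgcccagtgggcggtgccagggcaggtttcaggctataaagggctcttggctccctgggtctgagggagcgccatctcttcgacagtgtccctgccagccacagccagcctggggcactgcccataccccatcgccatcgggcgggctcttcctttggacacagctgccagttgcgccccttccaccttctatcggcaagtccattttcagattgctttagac
Dhrs9: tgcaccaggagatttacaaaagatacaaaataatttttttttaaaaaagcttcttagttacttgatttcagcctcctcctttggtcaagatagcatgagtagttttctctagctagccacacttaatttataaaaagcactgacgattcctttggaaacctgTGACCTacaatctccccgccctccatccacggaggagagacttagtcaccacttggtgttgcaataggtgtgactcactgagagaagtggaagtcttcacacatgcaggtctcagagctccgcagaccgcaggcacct
A match of letters is a description of the sequence and not a measured binding site. In *Rarb* the matched bases ran from 52 to 37 bases before the start site, and in *Cyp26a1* from 32 to 17 bases before it. The AGGTCA match of *Dhrs9* stood 88 to 83 bases before its start. No AGGTCA match lay within a direct repeat match.

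The wider pathway was followed in 43 other genes of retinoid transport, enzymes, synthesis, breakdown and receptors, of which 41 were tested. By edgeR with TMM, 16 were higher and 15 lower, and 10 were not called, where 34.1% of all genes tested were higher and 36.8% lower. With library totals the counts were 10 higher and 21 lower, where 16.9% and 54.6% of all genes were. The median log2 fold change was above that of all genes with TMM (0.35 against -0.072) and library totals (-0.34 against -0.759) and below it with the transcript length offset (-0.08 against 0.05) and the effective length offset (-0.15 against 0.056). Genes on both sides were found in transport and in the enzymes, whereas none of the synthesis, breakdown and receptor genes beyond the 9 was higher.

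**Figure D5:**
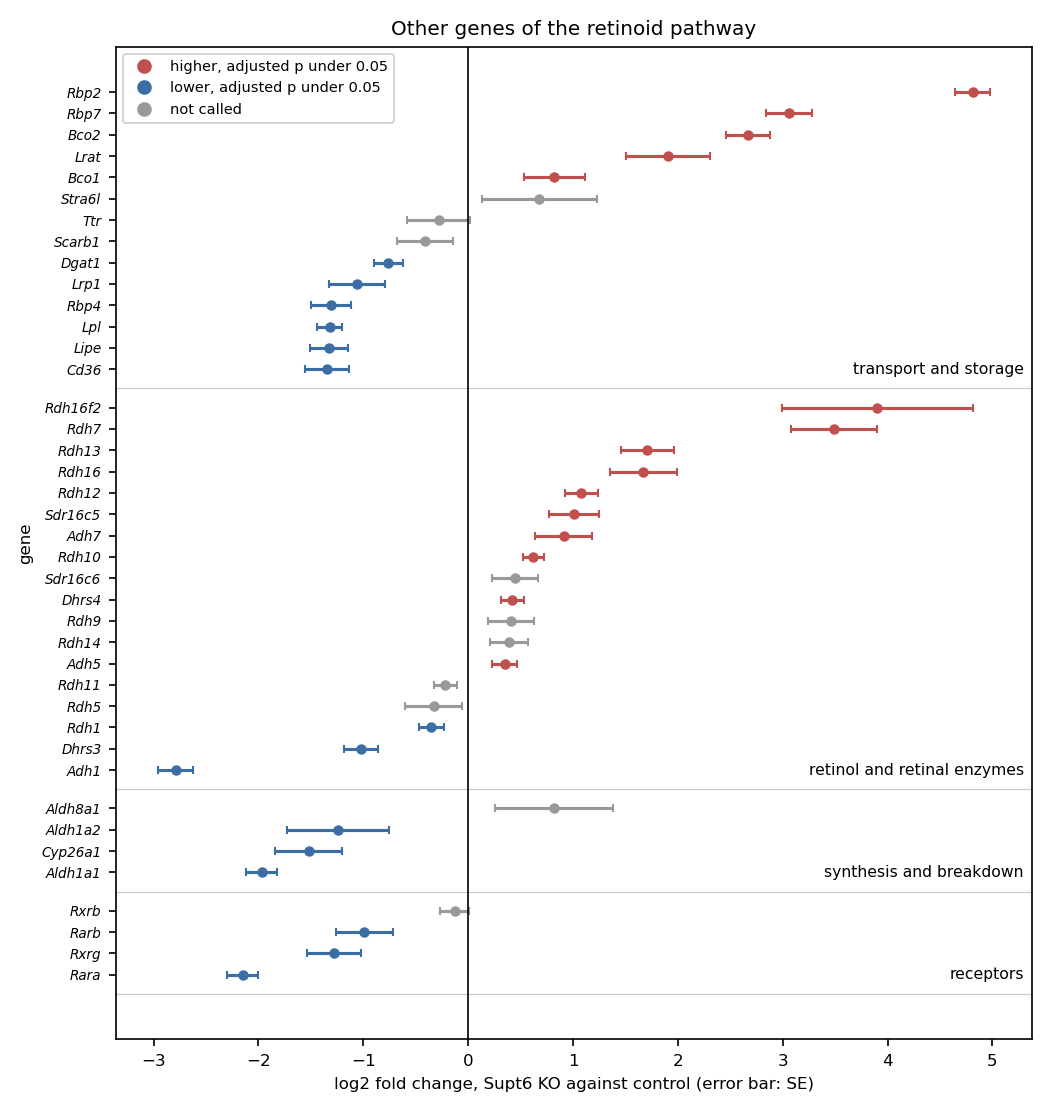
Log2 fold change with SE of tested other genes of the retinoid pathway, *Supt6*-KO against control, in 4 groups and ordered by value. Red points were called higher, blue points lower and grey points not called, and *Rbp2* lies farthest to the right at 4.81 and *Adh1* farthest to the left at -2.79, while the values of *Rdh7* and *Rdh16f2* rest on at most 3 counts in any control.

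Of 15 genes of transport and storage, 6 were higher and 6 lower with TMM, against 34.1% and 36.8% of all genes. Their median log2 fold change was -0.28 with TMM (-0.072 over all genes) and 0.24 with the transcript length offset (0.05 over all genes). The higher ones included cellular retinol carriers. *Rbp2*, known mainly from the intestine, had 4.62 ± 0.794 CPM (SD, n = 5) in the controls and 130 ± 20.4 CPM (SD, n = 4) in the knockout mice, with a log2 fold change of 4.81 (adjusted p = 2.3e-08, edgeR). *Rbp7* rose by 3.06, *Bco2*, which encodes an enzyme that cleaves carotenoids, by 2.67 and *Lrat*, whose product esterifies retinol for storage, by 1.91 on the log2 scale. The adjusted p of these 3 in the edgeR fit were 8.7e-07, 1.3e-06 and 0.0011. *Cd36*, which encodes a lipid uptake receptor, fell by 1.35 (adjusted p = 0.00012, edgeR) and *Rbp4*, which encodes the blood carrier of retinol that STRA6 binds, by 1.31 (adjusted p = 7.7e-05, edgeR). With the transcript length offset *Rbp2* was at 3.64, *Rbp7* at 1.62, *Lrat* at 2.5 and *Rbp4* at -2.12, all called in the same direction. Among the lower genes *Lrp1* was not stable, since it was called higher with the effective length offset.

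Of 18 tested genes for enzymes acting on retinol and retinal, 10 were higher and 3 lower with TMM (median log2 fold change 0.44), where all genes had 34.1% higher and 36.8% lower. The list had 5 higher and 6 lower with library totals (all genes 16.9% and 54.6%), and 5 higher and 4 lower of 16 tested with the effective length offset (all genes 38.2% and 34.6%). *Adh1*, which encodes an alcohol dehydrogenase that oxidises retinol, showed the largest drop of this list, with 95.9 ± 6.54 CPM (SD, n = 5) in the controls and 13.9 ± 3.29 CPM (SD, n = 4) in the knockout mice (log2 fold change -2.79, adjusted p = 2.9e-07, edgeR). *Dhrs3* went from 47.8 ± 5.41 to 23.6 ± 5.25 CPM (log2 fold change -1.02, adjusted p = 0.00018, edgeR), opposite in direction to *Dhrs9*. The third lower gene was *Rdh1*, at -0.35, which was not called with either length offset. *Rdh13*, *Rdh16*, *Rdh12* and *Sdr16c5*, which encode retinol dehydrogenases or close relatives, rose by 1.71, 1.67, 1.08 and 1.01 on the log2 scale (adjusted p = 8e-05, 0.00061, 8.5e-05 and 0.0028, edgeR), and *Sdr16c5* was not called with library totals or with either length offset. *Dhrs4*, higher by 0.42 with TMM, was called lower with library totals and with the effective length offset.

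Genes whose products work with the receptors came next. Of 10 receptors that pair with RXR, 8 were lower and none was higher with TMM, where 36.8% of all genes tested were lower, and 7 were lower with the transcript length offset, where 32.0% of all genes were. The median log2 fold change of the 10 was -1.39 with TMM, against -0.072 over all genes. *Ppara* had 14.6 ± 1.75 CPM (SD, n = 5) in the controls and 1.62 ± 0.682 CPM (SD, n = 4) in the knockout mice (log2 fold change -3.17, adjusted p = 1.4e-06, edgeR), and *Pparg*, *Vdr* and *Thra* had log2 fold changes of -2.1, -1.74 and -1.43. *Ppard*, the receptor supplied by FABP5, was not called, at 26.2 ± 2.59 CPM (SD, n = 5) and 22.1 ± 10.3 CPM (SD, n = 4) (adjusted p = 0.4, edgeR), and neither was *Nr1h3* (adjusted p = 0.37, edgeR), although both were called lower with library totals. Of 12 coregulator genes, 9 were lower and 1, *Hdac3*, was higher with TMM, but with the transcript length offset 4 were lower and 3 higher (*Hdac3*, *Med1* and *Tbl1xr1*). *Crebbp*, a coactivator gene, *Ncoa3* and *Ncor1* were lower under all 4 scalings, with log2 fold changes of -2.79, -1.27 and -1.26 with TMM and -1.68, -0.39 and -0.27 with the transcript length offset.

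Target genes of the receptors were mixed. Of 13 tested genes known to respond to retinoic acid, 6 were higher, 6 lower and 1, *Krt4*, not called, where 71.0% of all genes were called, with a median log2 fold change of 0.58 with TMM and -0.32 with the effective length offset. The list shares genes with the pathway lists, among them *Rarb*, *Cyp26a1*, *Dhrs3* and *Lrat*. *Tgm2*, a transglutaminase gene, had 40.9 ± 8.98 CPM (SD, n = 5) in the controls and 7.37 ± 1.32 CPM (SD, n = 4) in the knockout mice (log2 fold change -2.47, adjusted p = 1.3e-06, edgeR), whereas *Hbegf*, a growth factor gene, rose by 2.26 (adjusted p = 8.5e-05, edgeR). Of 8 genes known to respond to PPARδ, 6 were lower and none was higher with TMM, where 36.8% of all genes were lower and 34.1% higher (median log2 fold change -1.19 against -0.072 over all genes). With the transcript length offset 7 were lower and 1, *Fabp4*, was higher, whereas with the effective length offset 7 were lower, *Fabp4* among them, and none was higher. *Pdk4*, *Ucp3* and *Cpt1a*, all of fatty acid or fuel use, had log2 fold changes of -2.43, -2.17 and -1.46 in that list. With TMM *Fabp4*, at 0.46, and *Acadl*, at 0.04, were not called (adjusted p = 0.072 and 0.8, edgeR). In the lipid-binding protein family of *Fabp5* and the *Crabp* genes, 9 other members were tested, *Rbp2* and *Rbp7* among them, with 6 higher and 2 lower with TMM (all genes 34.1% and 36.8%), and 4 higher and 4 lower of 8 tested with the effective length offset (all genes 38.2% and 34.6%). *Fabp12* was rare, at most 3 counts in any control and 1.84 ± 1.39 CPM (SD, n = 4) in the knockout mice (adjusted p = 9.4e-05, edgeR), and *Fabp3* and *Pmp2* were the lower ones.

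Markers of several cell types moved along with the retinoid genes, and their part in the results was not tested. Of 8 suprabasal keratinocyte markers, 4 were called higher and 1 lower with TMM, where 34.1% of all genes tested were higher and 36.8% lower. With library totals 4 were higher and 4 lower, where 16.9% and 54.6% of all genes were. The transcript length offset gave 4 higher and 2 lower, where 35.9% and 32.0% of all genes were. The summed level of the 8, led by *Krt10*, was 21800 to 23800 CPM in the controls and 45000, 43900, 42400 and 21900 CPM in the *Supt6*-KO mice. Knockout mouse 4 stood apart, at the control level, and was the mouse with the most *Aldh1a3*, *Crabp2* and *Stra6* among the knockouts. The 7 basal markers summed to 11600 to 13300 CPM in the controls. In the knockout mice they summed to 8400, 5800, 7010 and 14100 CPM, with mouse 4 highest. By CPM, which is not divided by transcript length, *Krt5* was the highest of them in every control and *Krt14* in every knockout mouse. Of the 7, 6 were called lower, and *Krt14* was not called. Without mouse 4, *Aldh1a3*, *Crabp2* and *Stra6* were still called in the same direction by edgeR.

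Of 8 tested neutrophil markers 7 were higher and 1, *Mpo*, was lower with TMM, where 34.1% of all genes tested were higher. Their summed level was 14.1 to 42.9 CPM in the controls and 4570, 5170, 6460 and 2520 CPM in the *Supt6*-KO mice. Most of it was *S100a9* and *S100a8*, which keratinocytes also express. The defining neutrophil gene *Ly6g* was listed at 0 in 4 of 5 controls and in knockout mouse 2, and did not exceed 0.686 CPM in the others. Macrophage markers summed to 88 to 222 CPM in the controls and 220 to 276 CPM in the knockout mice. For the counts of markers called lower by edgeR with TMM, the share over all genes tested was 36.8%. Lower in the knockout mice were the sums of markers of cartilage (327 to 734 against 62.5 to 75.1 CPM, 6 of 6 tested genes lower), dermal papilla (456 to 774 against 93.4 to 113 CPM, 5 of 7 lower), skeletal muscle (3530 to 4800 against 822 to 1370 CPM, 6 of 7 lower) and Langerhans cells (922 to 1200 against 212 to 578 CPM, 5 of 6 lower). The 9 tested hair follicle markers summed to 5.63 to 2010 CPM in the controls and 15.8 to 73.7 CPM in the knockout mice, which overlapped, and 8 of them were lower. Sums of fibroblast markers (3100 to 10800 against 2080 to 3950 CPM, 4 of 7 lower) and adipocyte markers (308 to 435 against 270 to 403 CPM, 4 of 7 lower) overlapped between the groups, and those of sebocytes (914 to 1060 against 379 to 731 CPM, 5 of 7 lower) and endothelium (medians of 93.6 against 48.5 CPM, 6 of 7 lower) did not. The same counts were 7 of 7 lower for fibroblasts and for adipocytes with library totals, where 54.6% of all genes were lower, and 3 of 7 and 6 of 7 with the transcript length offset, where 32.0% were. *Cyp26b1*, *Rarg* and *Rxra* were lower in each of the 4 knockout mice than in any control, as were the sums of cartilage, dermal papilla, skeletal muscle, Langerhans cell, sebocyte and endothelium markers.

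The genes most alike to each member over the 9 mice were taken by Pearson correlation of log2 CPM, as a description that is dominated by the difference between the groups. The closest gene had an r between 0.933 for *Crabp1* and 0.999 for *Fabp5*. *Fabp5* was closest to *Txn1* (r = 0.999) and *Slpi* (r = 0.999). *Cyp26b1* was closest to *Trpv4*, *Tns1* and *Ltbp3* (r = 0.998 each), and *Rxra* to *Foxo1* (r = 0.998), *Camsap3* (r = 0.998) and *Crtc1* (r = 0.997). After the mean of each group was subtracted, *Crabp2* was closest to *Slc16a3* (r = 0.986), *Ldha* (r = 0.983) and *Ilf2* (r = 0.981). Among the 9 retinoid genes themselves the highest within-group value was that of *Crabp2* with *Aldh1a3* (r = 0.94 over 9 mice), followed by *Stra6* with *Aldh1a3* (r = 0.91), and in both pairs knockout mouse 4 was the highest of its group.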

How the data were processed

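RNA-Seq values of 17943 genes in skin from 5 control mice and 4 *Supt6*-KO mice were taken from 1 deposited table. The authors sequenced paired ends on a DNBSEQ platform, aligned the reads to mm10 with Bowtie2 2.3.4.3 and made expected counts per gene with RSEM 1.3.1, which they deposited without normalization between mice. HISAT and DESeq2 1.4.5 are also named in the submitters' processing notes. Between 8.39% and 9.55% of the deposited expected counts per mouse were not whole, and each was rounded to a whole number. Deposited TPM of 6 of the 9 mice were used only to derive the relative effective length of each gene. These were the 5 controls and knockout mouse 4, so the other knockout mice did not contribute to the effective lengths. Gene numbers were matched to RefSeq for 17910 genes and not matched for 33, and coordinates and transcript lengths are those of GENCODE vM21 (GRCm38), for 17797 genes.

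Genes with a sum of at least 10 counts over the 9 mice were tested with edgeR 4.0.16 (R 4.3.3) by its quasi-likelihood test with TMM factors, which ranged from 0.6738 to 1.3149, and Benjamini-Hochberg adjustment over 16426 genes, with no covariates. A gene was called at an adjusted p under 0.05. A single value was compared by a two-sided exact permutation test over mice, and ratios used counts with 0.5 added. Correlations are descriptions. The retinoid genes and all lists were chosen with earlier results of these data known. Named were the 9 genes, *Supt6*, the genes of each list with the largest absolute fold change and a mean of at least 1 CPM in either group (up to 6 a list for transport, enzymes, synthesis, breakdown and receptors and up to 4 for the others), those a count of 5 or fewer refers to, the most abundant or defining markers, and the 3 genes most alike to a member. *Rbp4*, *Lrp1*, *Dhrs4*, *Col2a1*, *S100a8*, *Mpo* and *Ly6g* were named after their values were seen.

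Alternatives were DESeq2 1.42.0, other scalings and filters, a fit without the top 50 genes by counts, offsets for transcript length, genomic span and, chosen after seeing the data, effective length, a replicate block, a test against a 2-fold change and each mouse left out. Levels per length with each mouse left out and the ratio with summed *Aldh1a* genes were also chosen after seeing the data. On counts simulated for this comparison, with 16330 genes tested, edgeR recovered 67% of 100 genes changed 2-fold and 100% of 100 changed 4-fold, with 4 false calls. Every simulated gene had the same dispersion, and only these genes changed, as many up as down. In the data 71.0% of genes were called, so these rates need not hold for them. Depth was 29627341 to 30967107 counts per mouse, and 3 counts were taken as the floor of a count, and floors cover counting error only. The labels do not say whether mice shared a litter or batch, so p-values measure the spread between these mice. Promoters are those of RefSeq. The values of 3 genes of the lists are not reported here. Other data types of the study were not analysed here. Summaries used Python 3.11.15, pandas 2.3.3 and scipy 1.17.1.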

Additional observations from a re-analysis of the deposited data

Results flagged for a closer look

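A mouse far from the others of its group was found in 5 of 60 groups of values examined, where about 3 arise by chance. *Stra6* was at 1.83 CPM in knockout mouse 4, against a group median of 0.527. The summed level of the suprabasal keratinocyte markers was 21900 CPM in the same mouse, against a median of 43200. The log2 ratio of *Crabp2* to *Fabp5* was -2.78 in control mouse 4, against a median of -3.0. The log2 ratio of *Crabp2* to *Crabp1* was 3.43 in control mouse 5, against a median of 4.39. The summed dermal papilla markers reached 774 CPM in control mouse 5, against a median of 528.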

How the results depend on the processing

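Over the 21 alternatives the retinoid genes counted 4 to 5 higher and 3 to 4 lower, and the 8 members other than *Crabp1* kept their direction and their call wherever they were tested. *Crabp1* turned to -0.43 with the transcript length offset and -0.48 with the effective length offset, and ranged from 0.52 to 0.88 with each mouse left out. It was not called with library totals (0.05), the genomic span offset (0.52), the test against a 2-fold change or without knockout mouse 3 (0.52), and the cause was not tested. With library totals 2771 genes were higher in place of 5608 (8970 lower in place of 6050), and of the other pathway genes 10 were higher in place of 16. The test against a 2-fold change asks for more and gave 2271 higher and 2770 lower genes, and 9 higher and 5 lower pathway genes. Under leave-one-out, 5305 to 5729 genes were higher and 5669 to 6392 lower, and 14 to 18 and 13 to 17 of the pathway genes. The within-mouse ratios changed no direction with each mouse left out or 1 count added, and that of *Aldh1a3* to *Cyp26b1* was 3.02 with the 3 *Aldh1a* genes summed. The mean correlation of same-numbered mice was 0.08 over 4 pairs, against -0.016 over 16 other pairs. Pairing by replicate number was not tested. A fit with the replicate block called 5251 higher and 5800 lower genes while the retinoid genes stayed at 5 and 4. *Stra6* could not be tested with at least 10 counts in every mouse, and *Fabp5* is left out when the 50 most abundant genes are removed. Depth limits *Stra6*, at 8 to 51 counts in the knockout mice.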
